A study of Homo sapiens with 4 samples.

Results

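The genes described here are among the longest of the genome, each made up mostly of intron. They were taken from a fixed list of 56 genes known to span about 400 kb or more. A probe set with 1 gene symbol was at hand for 54 of them, while MAGI1 and MAGI2 were not analysed here. To be kept, a gene had to reach a deposited log2 level of 7.24 in at least 1 of the 4 arrays, which held for 39 of the 54 members and for 11043 of all 18417 named genes. No detection call was used, so a level under 7.24 is a reading not shown to be above background. Just inside that limit lay AUTS2, whose highest deposited level was 7.37, and PTPRG at 7.40. Just outside it lay PTPRN2 at 7.17 and FHIT at 7.12. Each member was read by 1 probe set. In the RefSeq table of assembly GRCh38.p14 the kept members spanned 418 to 2060 kb with a median of 738 kb, against a median of 27.6 kb over all kept genes with a known span.

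The study used human prostate cancer cells, with 1 array of total RNA per condition. LNCaP, an androgen-responsive line, had been held for 24 h in hormone-free medium with 2.5% stripped serum. LTAD, obtained from LNCaP by long-term androgen deprivation, was grown in phenol red-free medium with 10% stripped serum and was profiled untransfected, after a control siRNA (siControl) and after siRNA knockdown of PSF (siPSF). SFPQ is the gene that encodes PSF. Line and culture medium cannot be told apart where LTAD is set against LNCaP, and transfection and siRNA sequence cannot be told apart where siControl is set against untransfected LTAD. No group had a replicate, so no test across samples was possible, and every difference below is between 2 single arrays. In RNA from whole cultures, fewer cells that express a gene and less RNA per cell cannot be told apart.

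RNA polymerase II needs far longer to finish a transcript of such a gene than of an ordinary one, and the long introns offer many sites at which a transcript can be cut and polyadenylated early. Many of the longest human genes, FHIT and WWOX among them, lie in common fragile sites, and many of the others encode synaptic or cell adhesion proteins. PSF is a nuclear RNA-binding protein that acts with elongating polymerase and in splicing, and in mouse neurons it has been linked to the transcription of very long genes. That is background and not a result of these arrays.

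The 4 deposited columns were not on one scale. Their medians over 33297 probe sets ran from 5.98 in siControl to 7.20 in untransfected LTAD. Levels and differences below are therefore on the log2 scale after quantile normalization of the 4 arrays, unless called deposited. On the deposited scale the median over all kept genes was shifted by -0.94 for siPSF minus LTAD, -0.92 for siControl minus LTAD, -0.72 for siControl minus LNCaP and 0.20 for LTAD minus LNCaP, but only by -0.02 for siPSF minus siControl. The siRNA target checked the labels, since SFPQ, itself a short gene of 16.8 kb, read 10.83 in LNCaP, 10.82 in LTAD, 11.23 in siControl and 9.87 in siPSF, 2.58-fold lower in siPSF than in siControl. Of the luminal prostate markers, 5 of 8 could be read and all 5 were kept. Only 1 of 8 neuronal and neuroendocrine markers, ENO2, was kept. On the linear scale the luminal levels summed to 17287 in LNCaP, 14720 in LTAD, 8664 in siControl and 9260 in siPSF, and the neuronal levels to 812, 1587, 1190 and 1868. The luminal gene KLK3 read 12.89, 11.06, 7.47 and 7.11 in the same order, and KLK2 read 9.31, 9.35, 8.45 and 8.11. HOXB13 read 10.70, 10.83, 10.93 and 10.78, and KRT8 and KRT18 varied by less than 2-fold over the 4 arrays. The median log2 level of the 5 luminal markers was 11.60, 11.06, 10.93 and 10.78. Most of the neuronal sum came from ENO2, which read 9.01, 10.29, 9.67 and 10.52 in the same order. The median log2 level of the 8 neuronal markers was 5.24, 5.78, 5.65 and 5.70, so neither the luminal nor the neuronal sums describe their list as a whole. Basal markers (1 of 2 kept) summed to 166, 169, 195 and 221 in the same order, and stromal, endothelial and immune markers (2 of 5 kept) to 331, 401, 388 and 395. The part of these lists in the members' differences was not tested.

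With PSF knocked down, long genes were lower nearly throughout the list. In siPSF against siControl, 10 of the 39 kept members (25.6%) were at least 2-fold lower and none was at least 2-fold higher. Over all kept genes 0.661% were at least 2-fold lower and 0.0634% at least 2-fold higher. The median difference of the members was -0.70, against -0.01 for all kept genes, and 36 of 39 members lay below 0, where 52.7% of all kept genes did. At 1.5-fold, 23 members (59%) were lower, against 3.12% of all kept genes. The filter did not pick members through these 2 arrays, since all 39 also reached it in LNCaP or untransfected LTAD. Of the 39, 32 reached it in LNCaP, 37 in untransfected LTAD, 25 in siControl and 18 in siPSF. The filter is on the deposited scale, where the array medians were 6.91, 7.20, 5.98 and 6.04 in that order. These 4 counts therefore cannot be read as a difference in level between arrays, and the shares over all kept genes were not counted. The median and counts of differences above thus rest in part on readings not shown to be above background. Without any filter, 11 of 54 members (20.4%) were at least 2-fold lower, against 0.494% of all 18417 genes, and their median was -0.51. The added gene was FHIT.

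**Figure D1:**
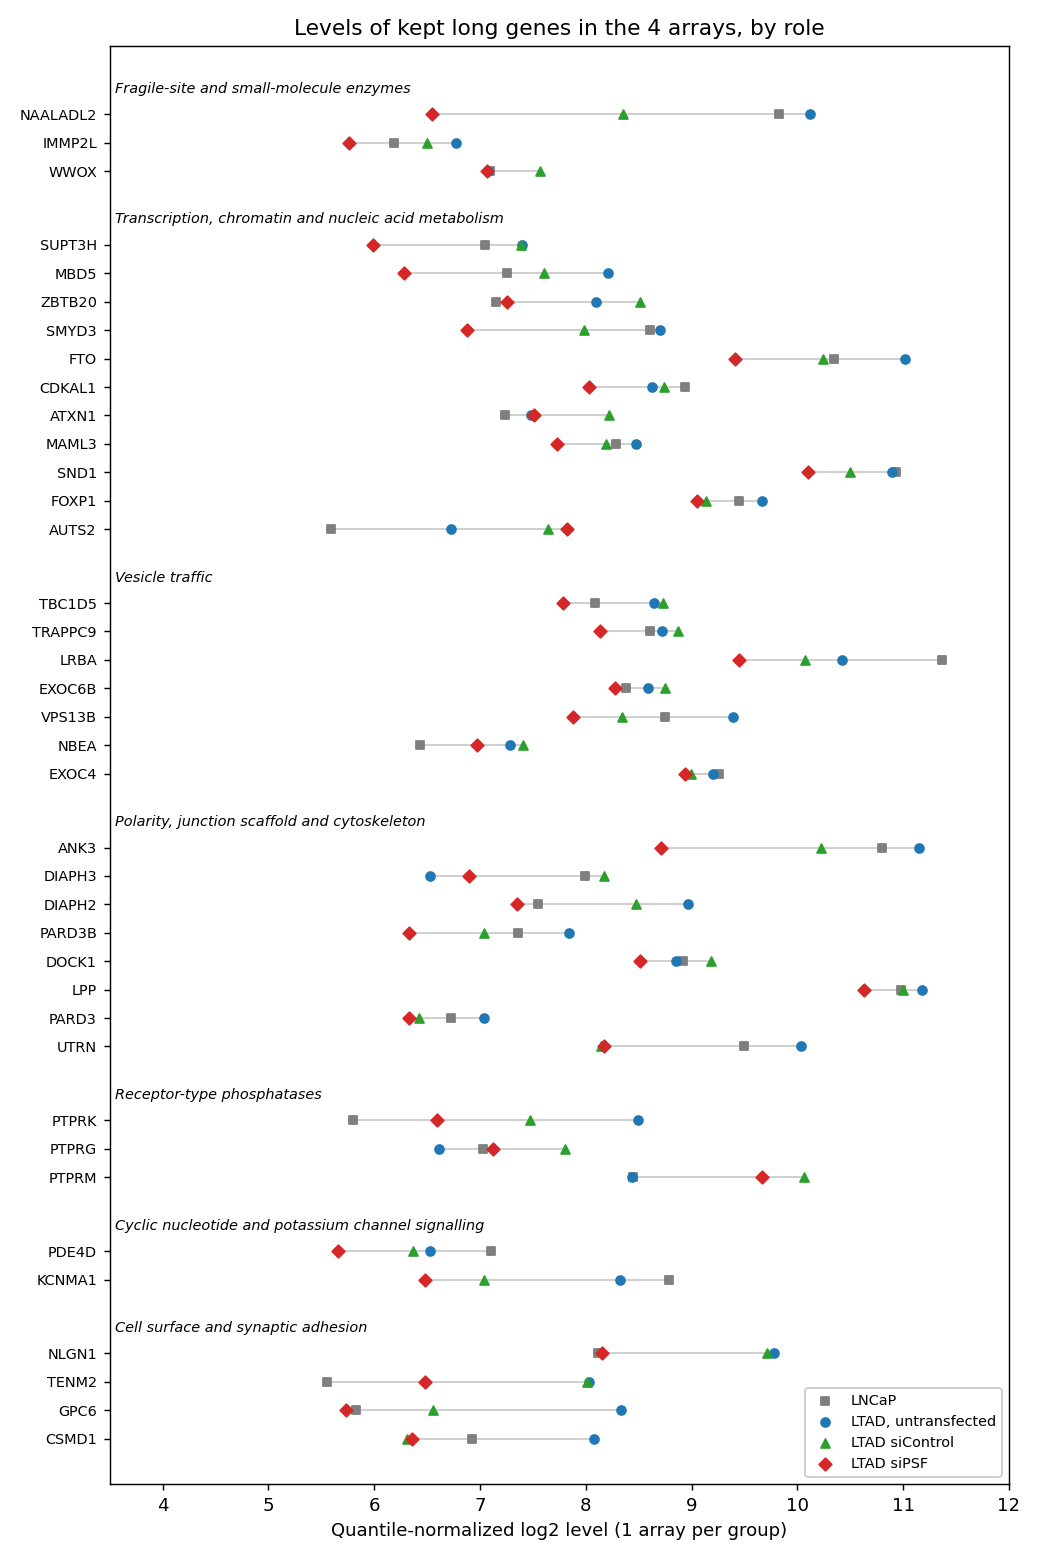
Quantile-normalized log2 level (x axis) of the kept members, all but 1 of them, in each of the 4 arrays, grouped by role and ordered within a role by siPSF minus siControl; each symbol is 1 array and the grey line joins the lowest and highest. Over all 39 kept members, the one not drawn included, the siPSF level is the lowest of the 4 for 27.

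Untransfected LTAD as the second control gave the same direction. Against it 17 of 39 members (43.6%) were at least 2-fold lower with siPSF and 2 were at least 2-fold higher, where 5.24% and 4.63% of all kept genes were. The members' median was -0.86. Among the lower ones, IMMP2L, PTPRK and GPC6 reached the filter in untransfected LTAD alone, so that they could only enter the list by being high there. With the filter read from LNCaP and siControl, 14 of 33 members (42.4%) were at least 2-fold lower and 1 (3.03%) higher. Of all genes that passed the same filter, 4.62% and 4.9% were. On the deposited scale 35 members were at least 2-fold lower and none higher, where 45.2% and 0.444% of all kept genes were. This comparison shares the siPSF array with the first. The siPSF array was at least 2-fold below both LTAD controls for 8 members (20.5%), namely NAALADL2, NLGN1, TENM2, ANK3, SUPT3H, MBD5, DIAPH2 and SMYD3. Among all kept genes 47 (0.426%) were. Over the 4 arrays, siPSF held the lowest level for 27 of 39 members (69.2%), against 23.1% of all kept genes, and the highest level for AUTS2 alone.

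The share at this size of difference was highest in the longest class of genes, list members or not. The share of kept genes at least 2-fold lower with siPSF than with siControl was 0.0772% of the 5183 genes under 25 kb, 0.0438% at 25 to 50 kb and 0.346% at 50 to 100 kb. It was 0.854% at 100 to 200 kb, 5.05% of the 475 genes at 200 to 400 kb and 14.7% of the 190 genes at 400 kb or more. The 151 genes of 400 kb or more that are not members had 18 (11.9%) at least 2-fold lower, none at least 2-fold higher and a median of -0.42. Their lowest 5 were PRKCA (-1.61), ACTR3C (-1.44), CDH12 (-1.35), PPFIA2 (-1.32) and SCFD2 (-1.30). The list was drawn up with earlier results of these arrays known, so its larger share is not independent of them. Among the 39 kept members, log10 span and difference had a Pearson r of 0.03 and a Spearman rho of -0.01. They were 0.25 and 0.24 for the 54 measured members, and -0.20 and -0.16 over 11034 kept genes with a span. These values are across genes, which share the same 2 arrays and are not independent replicates.

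**Figure D2:**
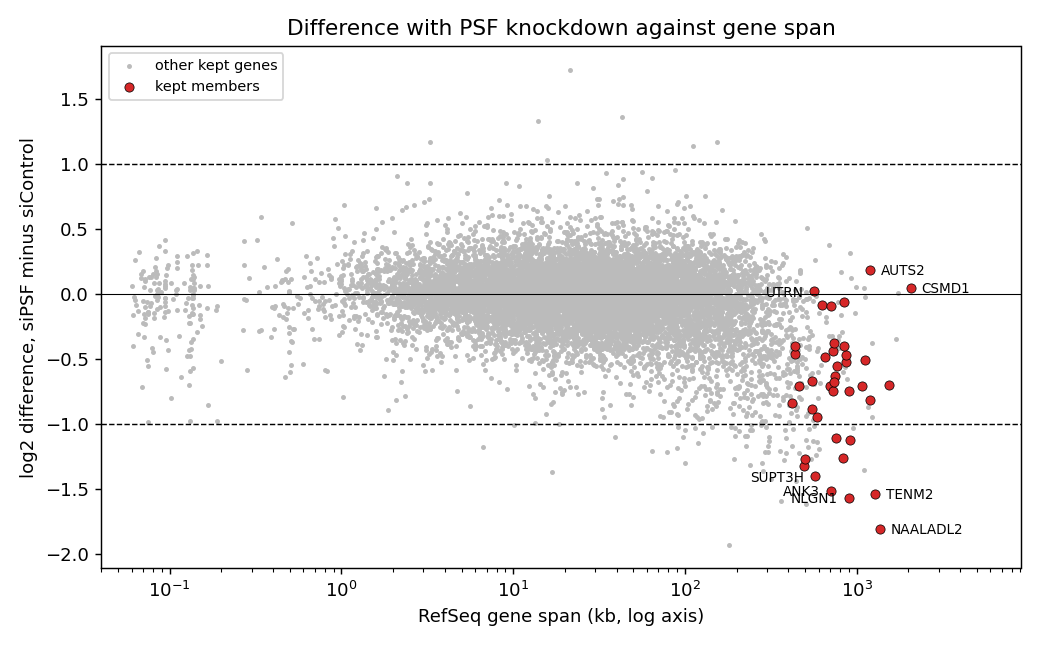
Log2 difference between siPSF and siControl (y axis) against RefSeq gene span in kb (log x axis) for all kept genes with a span (grey) and the 39 kept members (red); dashed lines mark 2-fold. Members lie between -1.80 (NAALADL2) and 0.18 (AUTS2), and 36 of 39 are below 0.

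Shorter genes of the same families and complexes centred near 0. Of 82 listed relatives with a span under 200 kb, 64 were kept, and none was 2-fold lower or higher with siPSF than with siControl. Their median was -0.02 and 33 of 64 lay below 0. The lowest were GPC4, a glypican (-0.75), LRP5, a Wnt co-receptor (-0.63), and SNTB2, a syntrophin of the dystrophin complex (-0.49). The highest were ZYX, the LPP relative zyxin (0.57), the receptor phosphatase gene PTPRU (0.45) and CDK5RAP1, a CDKAL1 relative (0.38). The nearest protein-coding genes on either side of the kept members, where they were under 200 kb and kept, gave a similar picture. None of these 33 was past 1.5-fold on the low side, and their median was -0.09. They ran from -0.51 for DEPDC1B, beside PDE4D, to 0.62 for SOX4, beside CDKAL1.

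**Figure D3:**
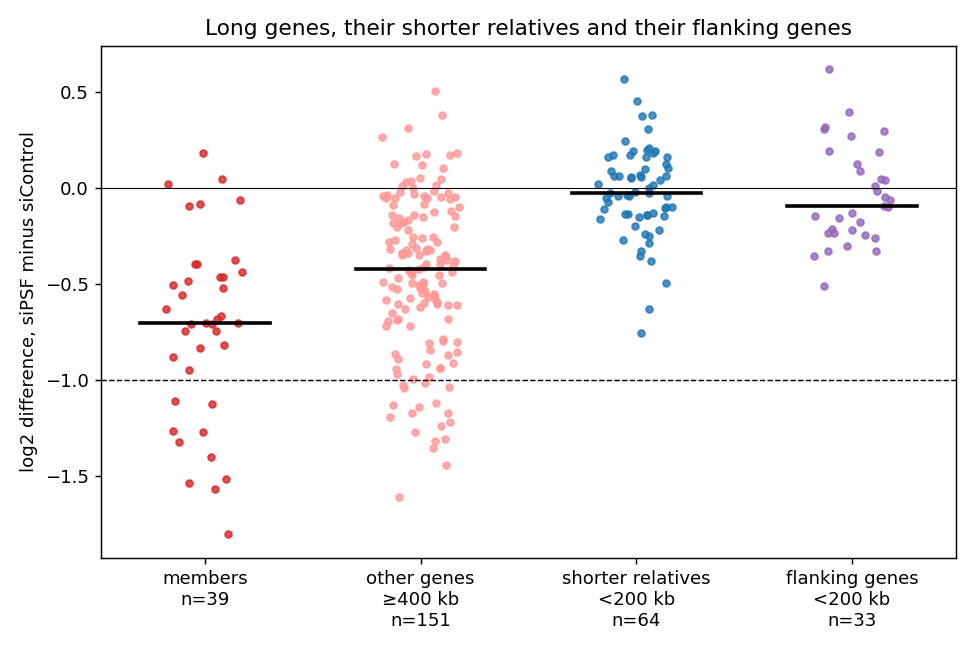
Log2 difference between siPSF and siControl (y axis) for 39 kept members, 151 other kept genes of 400 kb or more, 64 kept shorter relatives and 33 kept flanking genes; each point is a gene, the black bar the group median and the dashed line 2-fold lower. Medians are -0.70, -0.42, -0.02 and -0.09.

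To show where transcription of such genes begins, the 150 bases before the RefSeq start site (GRCh38.p14) are given for 3 members that were at least 2-fold lower with siPSF and for 2 that differed by less than 0.1. Capitals mark, on either strand, the motif GGGCGG of the GC box, the motif CCAAT of the box named after it and the motif TATAAA of the TATA box. NLGN1 lies at chr3:173395802-173395951 (plus strand), SUPT3H at chr6:45377663-45377812 (minus), NAALADL2 at chr3:174859184-174859333 (plus), EXOC4 at chr7:133252928-133253077 (plus) and UTRN at chr6:144285185-144285334 (plus).
NLGN1: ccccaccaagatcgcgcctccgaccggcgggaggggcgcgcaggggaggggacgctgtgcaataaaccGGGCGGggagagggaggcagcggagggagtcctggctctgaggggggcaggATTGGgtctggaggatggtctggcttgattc
SUPT3H: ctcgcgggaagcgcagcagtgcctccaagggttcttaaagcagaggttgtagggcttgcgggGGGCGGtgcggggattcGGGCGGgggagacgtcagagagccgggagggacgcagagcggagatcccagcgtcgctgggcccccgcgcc
NAALADL2: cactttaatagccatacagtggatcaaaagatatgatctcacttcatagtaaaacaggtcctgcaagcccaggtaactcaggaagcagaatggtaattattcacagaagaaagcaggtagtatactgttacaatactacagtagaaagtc
EXOC4: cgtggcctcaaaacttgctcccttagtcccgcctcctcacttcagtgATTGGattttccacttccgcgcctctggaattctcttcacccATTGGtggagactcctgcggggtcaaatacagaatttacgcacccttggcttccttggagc
UTRN: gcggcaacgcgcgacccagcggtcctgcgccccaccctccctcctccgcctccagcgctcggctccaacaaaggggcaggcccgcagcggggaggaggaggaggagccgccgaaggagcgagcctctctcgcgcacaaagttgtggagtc
The printed windows differ widely within both sets. NLGN1 and SUPT3H hold GC boxes in windows with 11 and 16 CpG dinucleotides, whereas NAALADL2 holds none of the 3 motifs and no CpG. EXOC4 holds 2 CCAAT boxes, and UTRN none of the 3 motifs but 16 CpG. The NAALADL2 start in that table lies 418 kb inside the outer end of the gene.

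Cell surface and synaptic adhesion genes ranged from clearly lower with siPSF than with siControl to nearly equal, with 2 of 4 kept members at least 2-fold lower. NLGN1, the postsynaptic adhesion protein neuroligin-1, read 8.12 in LNCaP, 9.78 in LTAD, 9.71 in siControl and 8.15 in siPSF. Both LTAD arrays without siPSF thus read high and the siPSF array near LNCaP, 2.95-fold below siControl. TENM2, a teneurin that links cells across synapses, had the same order at 5.55, 8.03, 8.01 and 6.48. Its difference between siPSF and siControl was -1.53, with the siPSF and LNCaP arrays under the filter value. GPC6, a glypican that carries heparan sulfate, read 5.83, 8.33, 6.55 and 5.73, so that it stood out in untransfected LTAD only. CSMD1, a complement-regulating membrane protein, read 6.93, 8.08, 6.31 and 6.36, with both transfected arrays at one low level and a difference of 0.05 between them. Both transfected arrays read CSMD1 under the filter value, so their near equality does not show that the gene was unchanged.

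Scaffold, polarity and cytoskeleton genes had 3 of 8 kept members at least 2-fold lower with siPSF than with siControl. ANK3, the membrane adaptor ankyrin-G, read 10.80 in LNCaP, 11.15 in LTAD, 10.22 in siControl and 8.71 in siPSF. The siPSF array stood lowest, 2.85-fold below siControl and 5.43-fold below untransfected LTAD. DIAPH2 and DIAPH3, formins that nucleate actin filaments, differed by -1.12 and -1.27 between siPSF and siControl. For DIAPH2 the levels were 7.55, 8.97, 8.47 and 7.35. DIAPH3 read 7.99, 6.53, 8.17 and 6.90, with untransfected LTAD even lower than siPSF, so its place against the controls depended on which LTAD array was used. Their shorter relative DIAPH1 was in the list of relatives, none of which was past 2-fold.

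The polarity scaffold genes PARD3B and PARD3 differed by -0.71 and -0.09, and DOCK1, an activator of the GTPase Rac, by -0.67. For PARD3B and PARD3 both transfected arrays read under the filter value. LPP, a focal adhesion protein, read 10.98, 11.18, 11.00 and 10.63, a spread of under 2-fold over all 4 arrays. UTRN, the dystrophin relative utrophin, read 9.49 in LNCaP, 10.04 in LTAD, 8.15 in siControl and 8.17 in siPSF. The 2 transfected arrays were alike and both lay over 3-fold below untransfected LTAD, at 3.71-fold for siControl and 3.65-fold for siPSF.

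Genes of transcription, chromatin and nucleic acid metabolism had 4 of 12 kept members at least 2-fold lower with siPSF than with siControl. SUPT3H, a subunit of the SAGA coactivator complex, read 7.05 in LNCaP, 7.39 in LTAD, 7.39 in siControl and 5.99 in siPSF. The siPSF array stood below 3 arrays that were close together, though neither transfected array reached the filter value on the deposited scale. MBD5, a methyl-CpG-binding domain protein, read 7.25, 8.21, 7.61 and 6.28, again with siPSF lowest and both transfected arrays under the filter. ZBTB20, a zinc finger repressor, read 7.15, 8.10, 8.52 and 7.25. SMYD3, a lysine methyltransferase, read 8.61, 8.70, 7.98 and 6.88. Their differences between siPSF and siControl were -1.26 and -1.11.

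Most others in that role were lower with siPSF than with siControl by less than 2-fold. FTO, the RNA demethylase, read 10.35, 11.02, 10.24 and 9.41, which is 1.78-fold lower with siPSF than with siControl and 3.06-fold lower than in untransfected LTAD. CDKAL1, a tRNA-modifying enzyme, and ATXN1, the transcriptional regulator ataxin-1, each differed by -0.70 between siPSF and siControl. MAML3, a Notch coactivator, differed by -0.46, and SND1, a nuclease of RNA metabolism, by -0.40. The forkhead repressor gene FOXP1 was near-equal at -0.08, with levels of 9.13 in siControl and 9.05 in siPSF. AUTS2, a regulator of neuronal transcription, was the highest kept member at 0.18. It read 5.59 in LNCaP, 6.73 in LTAD, 7.64 in siControl and 7.83 in siPSF, and so was higher in both transfected arrays after normalization. Its deposited levels were 5.98, 7.37, 7.17 and 7.36 in the same order. On that scale untransfected LTAD was highest, and siControl was under the filter value.

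All 7 vesicle traffic members were lower with siPSF than with siControl, none of them by 2-fold. TBC1D5, a GTPase-activating protein of the retromer pathway, read 8.09 in LNCaP, 8.65 in LTAD, 8.73 in siControl and 7.79 in siPSF, 1.92-fold below siControl. TRAPPC9, of the TRAPP tethering complex, was 1.67-fold lower and LRBA, which guards the recycling of CTLA4, was 1.55-fold lower. The exocyst genes EXOC6B and EXOC4 differed by -0.48 and -0.06. EXOC4 read 9.26, 9.20, 9.00 and 8.94, within 1.5-fold over all 4 arrays despite a span of 848 kb. VPS13B, a lipid transfer protein of the Golgi, and NBEA, neurobeachin, differed by -0.46 and -0.44. Against untransfected LTAD, VPS13B was the 1 member of the 7 past 2-fold, being 2.86-fold lower with siPSF.

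Receptor-type tyrosine phosphatase genes, whose products sit at cell contacts, were lower with siPSF than with siControl by less than 2-fold. Against untransfected LTAD, siPSF differed by -1.91 for PTPRK, 0.51 for PTPRG and 1.23 for PTPRM, the last being over 2-fold higher. PTPRK read 5.80 in LNCaP, 8.50 in LTAD, 7.47 in siControl and 6.59 in siPSF, with a difference of -0.88, and reached the filter in untransfected LTAD only. PTPRG read 7.03, 6.62, 7.80 and 7.12. PTPRM read 8.45, 8.44, 10.07 and 9.67, so that both transfected arrays were above both untransfected ones, and siPSF was 1.32-fold below siControl. In this family the order of LTAD and siControl thus differed from gene to gene.

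In cyclic nucleotide and potassium channel signalling, PDE4D, a cAMP phosphodiesterase, read 7.11 in LNCaP, 6.53 in LTAD, 6.36 in siControl and 5.66 in siPSF. It reached the filter in LNCaP only. KCNMA1, the pore subunit of the BK potassium channel, read 8.79, 8.33, 7.04 and 6.48. The untransfected arrays were both higher, and the difference between siPSF and siControl was -0.56. The kept fragile-site and enzyme genes were NAALADL2, IMMP2L and WWOX. NAALADL2, a relative of the prostate antigen PSMA, read 9.83 in LNCaP, 10.12 in LTAD, 8.35 in siControl and 6.55 in siPSF. It was the lowest member, with a difference of -1.80 between siPSF and siControl, and siControl itself stood 3.41-fold below untransfected LTAD. IMMP2L, a mitochondrial inner membrane peptidase, differed by -0.74 and WWOX, a WW-domain oxidoreductase, by -0.51.

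Of the 10 members at least 2-fold lower with siPSF, NLGN1 and ANK3 reached the filter in both arrays, 6 in siControl only, and SUPT3H and MBD5 in neither. For 8 of the 10, then, at least the siPSF reading was under the filter value, and no fold is given.

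The 15 members under the filter in all arrays had a median difference of -0.05 between siPSF and siControl. FHIT, a diadenosine triphosphate hydrolase, was lowest at -1.17, followed by DPYD, which degrades pyrimidines, at -0.58 and the ankyrin gene ANK2 at -0.48. FHIT read 5.22 in LNCaP, 5.43 in LTAD, 7.60 in siControl and 6.43 in siPSF, and was higher in both transfected arrays. Its deposited levels were 5.62, 6.18, 7.12 and 5.94 in the same order, so that siPSF then lay below untransfected LTAD. On the normalized scale TCF4, a basic helix-loop-helix factor, read 5.26, 4.53, 7.26 and 7.09, likewise higher in the transfected arrays. PRKG1, the cGMP-dependent protein kinase, read 3.86, 6.34, 3.86 and 3.81, high in untransfected LTAD alone. The neuronal genes PTPRD, DLG2, CNTNAP2, LRP1B and PTPRN2, the muscle gene DMD and the glypican gene GPC5 varied by less than 2-fold over the 4 arrays, as did RORA, ANK2, MACROD2, DPYD and PDE4B.

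Long genes also differed between the 2 LTAD arrays that received no siRNA against PSF. In siControl against untransfected LTAD, 7 of 39 members (17.9%) were at least 2-fold lower and 3 (7.69%) at least 2-fold higher, where 4.32% and 5.53% of all kept genes were. The members' median was -0.21, against 0.04 for all kept genes. The 7 lower members were UTRN, CSMD1, GPC6, NAALADL2, KCNMA1, VPS13B and PTPRK, and the 3 higher ones DIAPH3, PTPRM and PTPRG. GPC6 and PTPRK reached the filter in untransfected LTAD alone, so that they could only enter the list by being high there. With the filter read from LNCaP and siPSF, 5 of 33 members (15.2%) were at least 2-fold lower and 3 (9.09%) higher. Of all genes that passed the same filter, 3.71% and 5.91% were. Among the 151 other genes of 400 kb or more, 33 (21.9%) were at least 2-fold lower and 7 (4.64%) higher. On the deposited scale 23 members were at least 2-fold lower and none higher, where 43.3% and 0.589% of all kept genes were. After quantile normalization 25 of 39 members (64.1%) lay below 0, where 46.4% of all kept genes did. Of the 151 other long genes 66.9% lay below 0, with a median of -0.18. Long genes thus leaned lower here without siRNA against PSF. The lean of the members depended on the scale, since their median turned to 0.05 when arrays were centred on their medians in place of quantile normalization.

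In untransfected LTAD against LNCaP the long genes leaned the other way. Of 39 members, 7 (17.9%) were higher by 2-fold or more and 1 (2.56%), DIAPH3, lower by as much, where 2.26% and 3.42% of all kept genes were. The median was 0.29, against 0.02 for all kept genes. The 7 higher members were PTPRK (2.70), GPC6 (2.50), TENM2 (2.47), NLGN1 (1.66), DIAPH2 (1.42), CSMD1 (1.15) and AUTS2 (1.14), all 4 kept adhesion genes among them. NLGN1 was 3.17-fold higher in LTAD and DIAPH2 2.68-fold. For PTPRK, GPC6, TENM2 and AUTS2 the LNCaP array read under the filter value, and PTPRK and GPC6 reached it in untransfected LTAD alone, so that they could only enter the list by being high there. With the filter read from the transfected arrays, 4 of 26 members (15.4%) were at least 2-fold higher, against 1.43% of the 8278 genes that passed the same filter. Of the 151 other genes of 400 kb or more, 31 (20.5%) were at least 2-fold higher.

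With siControl LTAD against the same LNCaP array, 6 of 39 members (15.4%) were higher by 2-fold or more and 4 (10.3%) lower by as much, where 2.26% and 2.97% of all kept genes were. TENM2 (2.46), AUTS2 (2.05), PTPRK (1.67), PTPRM (1.62), NLGN1 (1.60) and ZBTB20 (1.37) were higher. KCNMA1 (-1.75), NAALADL2 (-1.48), UTRN (-1.35) and LRBA (-1.29) were lower. On the deposited scale 13 were at least 2-fold lower and 2 higher, where 24.6% and 0.471% of all kept genes were. The median of 0.18 changed sign under several settings, so no common direction can be read from this comparison.

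**Figure D4:**
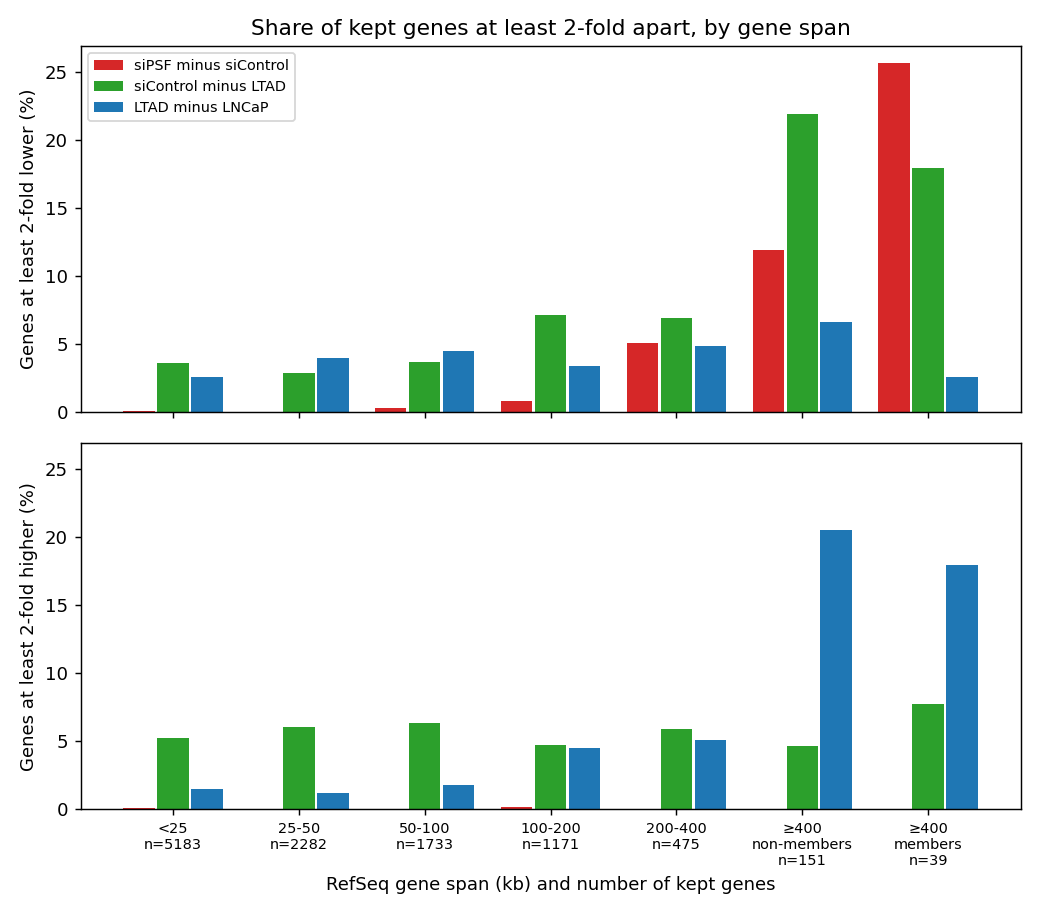
Share of kept genes (y axis, percent) at least 2-fold lower (upper panel) or higher (lower panel) in classes of RefSeq gene span (x axis, kb, with the number of genes), for siPSF minus siControl (red), siControl minus untransfected LTAD (green) and LTAD minus LNCaP (blue). Members of 400 kb or more reach 25.6%, 17.9% and 2.56% lower, and 0%, 7.69% and 17.9% higher.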

How the data were processed

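Total RNA of 4 cultures was hybridised to Affymetrix whole-transcript gene arrays, 1 array per group. The authors deposited RMA log2 levels per probe set made with Expression Console, per the submitters' processing notes. Background correction and summarization of probes thus preceded everything here. Of 33297 probe sets, 19460 carried 1 gene symbol in the platform annotation, 1754 several and 12083 none, and only the first were used. Symbols were updated by Entrez ID to RefSeq (GRCh38.p14), matching 19429 of them. A gene was read by the probe set with the highest deposited mean. The 4 columns were quantile-normalized, since their medians differed. Differences were taken between single arrays, and at least 2-fold (1 on the log2 scale) was counted. With 1 array per group no test, error or p-value can be given; precision is limited by how few arrays there were. On simulated data for siPSF minus siControl over 11043 genes, 50 of 50 genes made 3-fold lower were recovered. The simulated siPSF column was a shifted copy of the siControl column without added noise. It therefore checks the counting only and does not show how well a difference is recovered between 2 real arrays. Every kept member is named but 1, which is counted in the totals and is not reported here, along with the lowest and highest shorter relatives and the lowest other long genes. Members, lists and settings were chosen with earlier results of these data known, and flanking genes after the data were seen. Alternatives were the deposited scale, centring on array medians, other filters, a 1.5-fold threshold, the mean over probe sets and a RefSeq span of at least 400 kb.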

Additional observations from a re-analysis of the deposited data

How the results depend on the processing

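No paired analysis was possible because each group held 1 array, and no replicate could be left out. For siPSF minus siControl, the median moved from -0.70 by less than 0.1 under every setting run except without a filter (-0.51), and all 39 kept members stayed within 0.1 on the deposited scale. Members at least 2-fold lower numbered 5 of 23 with a filter at the 75th percentile, and 23 were lower at 1.5-fold. On the deposited scale, siPSF minus LTAD had 35 lower, 0 higher and a median of -1.86, siControl minus LTAD 23, 0 and -1.17, and siControl minus LNCaP 13, 2 and a reversed median of -0.61. The median of LTAD minus LNCaP was then 0.46, and AUTS2 reversed to -0.014 for siPSF minus LTAD. With array medians subtracted, medians were -0.70 (siPSF minus LTAD), 0.051 (siControl minus LTAD, reversed), 0.17 (LTAD minus LNCaP, with 2 lower) and 0.32 (siControl minus LNCaP). Without a filter, siPSF minus LTAD had a median of -0.60. For siControl minus LTAD, 5 were then higher (9.26%, against 4.69% of all genes) and the median was -0.041. With the 75th percentile filter, siPSF minus LTAD had 11 lower, 1 higher and a median of -0.98, siControl minus LTAD 1 higher and -0.40, LTAD minus LNCaP 0 lower and 4 higher, and siControl minus LNCaP 3 higher and a reversed median of -0.11. Shares over all genes were not counted under the 75th percentile filter or with array medians subtracted. At 1.5-fold, siPSF minus LTAD had 27 lower (69.2%), against 13.1% of all kept genes. For siControl minus LTAD, 13 were lower (33.3%) and 5 higher (12.8%), against 11.7% and 14.9%. LTAD minus LNCaP had 2 lower (5.13%) and 12 higher (30.8%), against 8.81% and 6.67%. For siControl minus LNCaP, 7 were lower (17.9%) and 12 higher (30.8%), against 8.25% and 9.17%. Of 2 filters chosen after seeing the data, one was read from the arrays outside each comparison. It left 1 higher for siPSF minus LTAD (3.03%, against 4.9% of all genes that passed it). For LTAD minus LNCaP it left 4 higher (15.4%, against 1.43%). The other, on the mean over the 4 arrays, left 26 members. For siPSF minus LTAD, 10 of them were lower (38.5%) and 1 higher (3.85%), against 4.03% and 4.83% of all genes that passed it. In siControl minus LTAD 4 were lower (15.4%, against 3.23%), and in LTAD minus LNCaP 2 were higher (7.69%, against 1.45%). For siControl minus LNCaP, 3 were higher (11.5%, against 2.16%) and the median reversed to -0.10. The filters change which members are counted; the cause of the shift between scales was not tested. The mean over probe sets and the span limit could not change any member's value, since each member has 1 probe set and all 39 kept members span at least 418 kb. Levels under the filter value are not shown to be above background, which limits 8 of the 10 lower members with siPSF.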

Other observations

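Genes lying inside the long members were read separately where they had a probe set of their own. Of 17 such genes 4 were kept, with differences between siPSF and siControl of 0.65 for FLJ42393 inside LPP, 0.23 for ID2B inside PTPRG, 0.15 for SND1-IT1 inside SND1 and -0.09 for CSTF2T inside PRKG1. FLJ42393 was thus over 1.5-fold higher with siPSF, as were 0.743% of all kept genes, though both of its readings were under the filter value. CSTF2T, a cleavage factor gene, read 8.99 in LNCaP, 8.91 in LTAD, 9.06 in siControl and 8.97 in siPSF, while PRKG1 itself was under the filter in all 4 arrays.

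Promoter motifs were counted in the 150 bases before the RefSeq start, on both strands. The GC box motif GGGCGG was present in 14 of 34 kept members with a promoter entry (41.2%), against 60.2% of kept genes and 36% of all 27305 promoters. The motif CCAAT was present in 10 of 34 (29.4%), against 27.5% of kept genes. The TATA box motif TATAAA was present in 1 of 34 members, TENM2, against 3.4% of kept genes. In 126 other kept genes of 400 kb or more, the shares were 46.8% for the GC box, 21.4% for CCAAT and 3.97% for TATAAA. Of the 34 listed starts, 9 lay over 100 kb inside the gene, so some windows belong to internal starts. Among the 10 members at least 2-fold lower with siPSF than with siControl, 4 held a GC box and 3 the CCAAT motif. Of these 10, NAALADL2, ZBTB20, SMYD3, DIAPH3 and ANK3 had listed starts over 100 kb inside the gene, and that of TENM2 lay 94 kb inside. The motif counts of this set therefore do not describe the outermost starts of its genes.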
